A study of Mus musculus with 55 samples.

Results

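The genes described here are those of antigen presentation by major histocompatibility complex (MHC) class II in mouse macrophages: the regulator Ciita, the chain genes H2-Ab1, H2-Aa and H2-Eb1, the invariant chain gene Cd74, and the peptide exchange genes H2-DMa and H2-DMb1. They were chosen by name. Their regions are the merged open chromatin regions (ATAC peaks) that the authors' annotation assigns to one of these 7 genes at a distance of at most 100 kb from a transcription start site. The ATAC libraries were re-analysed ones of C57BL/6J macrophages, untreated or given KLA, an LPS in the series' text, for 1 h. This gave 23 regions, of 97113 in the tables and of 86543 that lie within 100 kb of a named gene, and 7 genes of 18490 with such a region. Ciita held 10 regions, Cd74 6, H2-Ab1 and H2-DMa 2 each, and H2-Aa, H2-DMb1 and H2-Eb1 1 each. Regions were read singly and summed per gene.

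The study asked how the milk oligosaccharide 3'-sialyllactose (3'SL) alters the response of macrophages to lipopolysaccharide (LPS), the bacterial ligand of TLR4. Chromatin immunoprecipitation sequencing (ChIP-seq) measured histone H3 acetylated at lysine 27 (H3K27ac), a mark of active promoters and enhancers, and p300, an acetyltransferase that places this mark. The groups were 3'SL plus LPS, LPS alone, 3'SL alone and the vehicle PBS, each at 2 h and at 6 h, with 3'SL at 100 µg/ml and LPS at 10 ng/ml. These groups follow the library titles. For H3K27ac at 2 h, some treatment labels of replicate 1 name 1 h instead. The label of 3'SL plus LPS replicate 2 at that time names the vehicle. All groups share the rest of the model: bone marrow-derived macrophages of the strain C57BL/6, grown with macrophage colony stimulating factor and starved of serum overnight before treatment, with no interferon-γ among the listed agents. H3K27ac had 2 analysed libraries in each group except PBS at 6 h, which had replicate 2 alone. A replicate 1 PBS library whose label names no time stood as a group of its own. For p300 every group had 2 analysed libraries except PBS, which had replicate 2 alone at both times. A comparison with such a lone PBS library assumes that it varies like the libraries of the other groups. The series also lists replicate 1 PBS libraries of p300, and of H3K27ac at 6 h, to which no deposited column was matched.

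MHC class II molecules are pairs of an alpha and a beta chain that carry peptides from endosomes to the cell surface, where helper T cells read them. Their genes, together with Cd74 and the H2-DM genes, are switched on by CIITA, a coactivator that does not bind DNA itself but docks on the RFX, CREB and NF-Y complexes at a promoter module of X and Y boxes, and which recruits acetyltransferases such as p300. Ciita is transcribed from several alternative promoters that serve different cell types. Resting macrophages make little class II, and interferon-γ is the known strong inducer.

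The sequences of the member regions on which the results turn are shown so that a reader can see which of them hold letters of the class II promoter module. They come from the reference genome GRCm38.p6 on the plus strand, in lower case, with the Y box core ATTGG, or CCAAT for its other strand, in capitals. The first lies upstream of H2-Ab1 between genes, at −5499 bases from its start. The second, named for the H2-Ab1 start, is centred at −91 bases and ends just upstream of that start. Its wider counting windows reach the start. The third lies between genes at −4000 bases from the start of H2-Aa. The fourth lies in intron 2 of Ciita 8621 bases downstream of an alternative start, and the fifth in intron 1 of H2-DMa.
H2-Ab1 upstream, chr17:34257677-34257779: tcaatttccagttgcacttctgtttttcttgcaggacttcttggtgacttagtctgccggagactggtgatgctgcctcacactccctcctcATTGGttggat
H2-Ab1 start, chr17:34263077-34263195: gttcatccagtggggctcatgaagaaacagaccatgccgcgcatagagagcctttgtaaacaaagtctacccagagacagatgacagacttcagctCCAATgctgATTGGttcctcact
H2-Aa upstream, chr17:34291719-34291823: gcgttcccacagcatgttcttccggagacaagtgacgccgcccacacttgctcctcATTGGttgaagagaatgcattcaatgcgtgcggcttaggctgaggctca
Ciita intron, chr16:10498350-10498454: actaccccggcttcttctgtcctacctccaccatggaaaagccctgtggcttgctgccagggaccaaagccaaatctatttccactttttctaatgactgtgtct
H2-DMa intron, chr17:34123617-34123721: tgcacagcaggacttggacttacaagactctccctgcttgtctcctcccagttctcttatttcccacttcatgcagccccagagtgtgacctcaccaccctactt

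The Y box core stood in 4 of the 17 member regions outside Cd74, against 823 of 6024 open regions of the same lengths (103 to 157 bases) on chromosomes 16 and 17, or 13.7%. The 4 are the H2-Ab1 and H2-Aa regions above and 1 Ciita region at 6664. Among the 136 pairs of these 17 regions, the longest shared run joined the upstream regions of H2-Ab1 and H2-Aa, which share the 14 letters ctcctcATTGGttg on the same strand, a run chosen from these 2 regions, so that their own matches are fixed by the choice. Of the 6024 open regions no other held it. The X box core, searched as CCTAGNNAC on both strands, stood in none of these 17 regions, and the Cd74 regions were not searched. The RefSeq promoter table of GRCm38.p6 covers 250 bases before to 50 bases after a start and matched 4 of the genes, H2-DMa, H2-DMb1, H2-Aa and H2-Eb1. Both cores stood together only in the window of H2-DMb1, which is shown because it holds the X box core at position 153 and the Y box core at position 190, counted from 1 at its 5′ end, both in capitals.
H2-DMb1 promoter, chr17:34152941-34153240, plus strand: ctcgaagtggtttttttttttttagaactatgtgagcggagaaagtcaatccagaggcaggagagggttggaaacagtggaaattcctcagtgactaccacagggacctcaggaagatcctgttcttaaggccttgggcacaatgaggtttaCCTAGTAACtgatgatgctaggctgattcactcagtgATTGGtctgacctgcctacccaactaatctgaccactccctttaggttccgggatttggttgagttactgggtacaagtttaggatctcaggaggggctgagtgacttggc
Of 32851 promoter windows, 3.91% hold the X box core, 37.4% the Y box core and 1.34% both. The windows of H2-Aa and H2-Eb1, and 1 of 2 of H2-DMa, hold the Y box core without the X box letters searched. Only that exact string was searched, so an X box that differs from it by a letter is missed. These windows are not shown to lack an X box. A match of letters is a description of these windows and not of binding.

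The values are tags, that is, sequenced fragments, in a window of 1000 bases (H3K27ac) or 200 bases (p300) around each region, and a normalised tag is a tag after scaling of the libraries to each other. Where windows of the same gene overlap, the tags they share enter its sum from each window. The libraries held 4200716 to 39597624 tags for H3K27ac and 3199270 to 18130439 for p300. The 2 replicate series stood apart in enrichment: the windows of all regions held 6.12 to 9.42% of the tags in the replicate 1 p300 libraries against 20.1 to 27.48% in replicate 2, with 4.77% in the input, and 42.62 to 64.83% against 72.4 to 79.34% for H3K27ac, with 8.65 to 8.85% in the inputs. All 8 macrophage marker genes were tested, and their H3K27ac per window ran from 132 to 618 normalised tags, with 7 above the 90th percentile of all genes. Of the markers of other cells, those of neutrophils (5 of 5 genes) had a median of 4.42, of dendritic cells (7 of 7) 23.2, of B cells (4 of 7) 101 and of T cells (2 of 4) 88.3 normalised tags per window, with no region for Cd79a, Pax5, Cd3e and Lck among others. Some markers of these lists stood high: Xcr1 of dendritic cells had 189 and Ms4a1 and Blnk of B cells 183 and 166, above the 132 of the macrophage marker Mertk. How far other cells contributed to the class II signal was not tested.

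In the open regions assigned to them, most class II genes had H3K27ac near or below the middle of all genes, and H2-DMa was the exception. These windows do not cover every promoter: none lay within 1 kb of the annotated start of Cd74, H2-Aa, H2-Eb1 or H2-DMb1, where the nearest were at 1984, −4000, 4066 and 12043 bases, while deposited merged H3K27ac peaks lay at 567, 195, 219 and 136 bases from those starts. The levels below are those of the open regions alone. Per window, H2-DMa averaged 298 normalised tags of H3K27ac over the 16 libraries (97.2nd percentile of all genes tested), followed by Cd74 with 51.1 (56.1st) and Ciita with 27.9 (41.9th). H2-DMb1 had 19.4, H2-Ab1 17.9, H2-Eb1 11.6 and H2-Aa 10.1 normalised tags per window, between the 24.4th and the 34.4th percentile. The replicate ranges of these last 4 genes overlap, so their order is not resolved. Among the single regions, the percentile of H3K27ac over all regions ran from 24.7 to 98.2 with a median of 53.6, and that of p300 from 23.3 to 95.4 with a median of 73.3.

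Against input H2-DMa again stood highest in H3K27ac, but the other genes did not keep their order. The H2-DMa intron region held 438 tags per 10000000 of H3K27ac against 9.36 in input, a ratio of 46.8, and the other H2-DMa region, at −651 in the promoter of another transcript, had a ratio of 14.6. The Cd74 region at 3615 in intron 1 reached 11.5 and the Ciita region at −3969 reached 9.70, the highest of each gene. Cd74 at −8565 and Ciita at 11105 lay below input, with ratios of 0.608 and 0.718. The single regions of H2-Eb1 and H2-DMb1 had ratios of 4.93 and 3.15. The H2-Aa region held 9.73 tags against 11.5 in input, a ratio of 0.846, and the 2 H2-Ab1 regions had ratios of 1.75 and 1.78. For p300 the Ciita intron region held 27.9 tags against 1.21 in input, a ratio of 23.01 that rests on 2 input tags. The p300 windows of both H2-Ab1 regions and of H2-Aa did not exceed input: the upstream H2-Ab1 window held 26.5 tags in ChIP and 31.6 in input (52 input tags), and the ratios at the H2-Ab1 start and at H2-Aa were 0.373 and 0.658. Values of these 3 windows are therefore given below with that limit. The p300 windows of Ciita at 3635 and 6664 did not exceed input on average either, with ratios of 0.722 and 0.999.

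**Figure D1:**
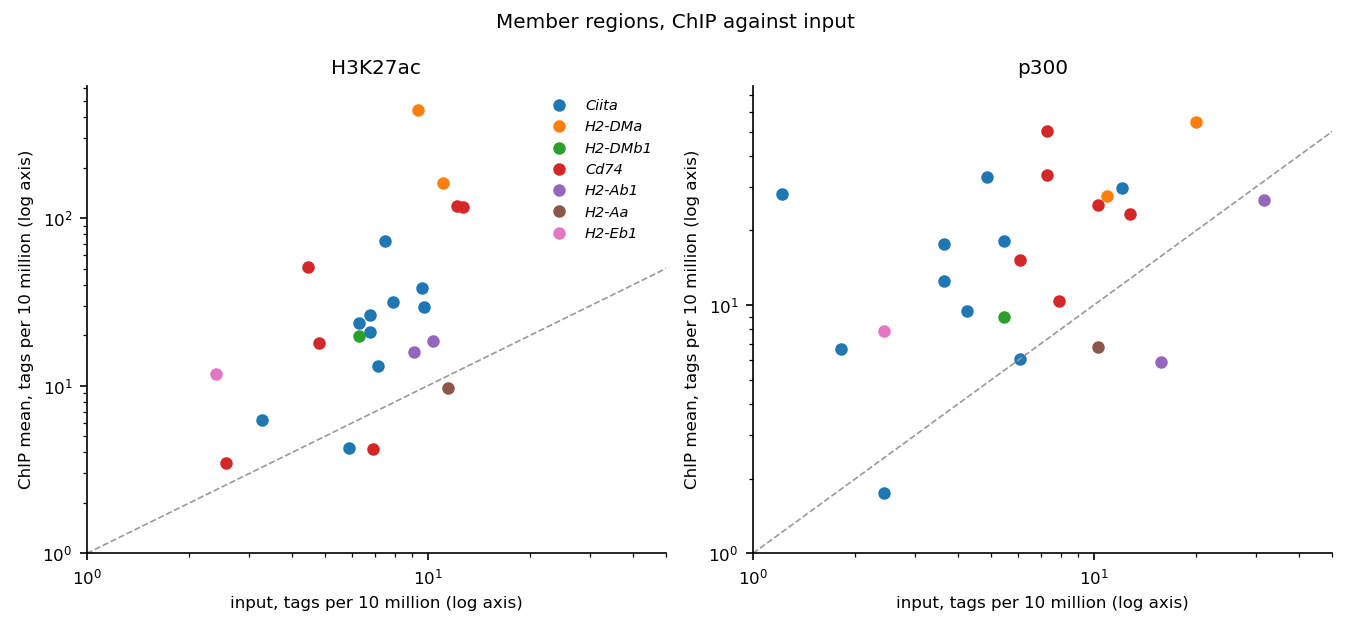
Mean ChIP signal of each member region (vertical axis, authors' tags per 10000000, log scale) against its input (horizontal axis, same unit and scale) for H3K27ac and for p300, with the dashed line at equality. The H2-DMa regions stand highest above the line for H3K27ac, while the H2-Aa region in both marks and the H2-Ab1 regions in p300 lie on or under it. So do Cd74 at −8565 and Ciita at 11105 for H3K27ac, and Ciita at 3635 and 6664 for p300.

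The first comparison was LPS against PBS at 2 h. In H3K27ac the gene sums of 6 of 7 members were higher on average after LPS, with a median log2 difference of 0.74 against 0.09 over all genes tested, of which 55.0% were positive. None of the 7 passed an adjusted p of 0.05 with limma, where 5.51% of 16993 genes did. An unadjusted p under 0.05 was found for 1 member, H2-DMa, and for 3186 of all genes. None passed with edgeR or DESeq2. Among the 22 member regions tested for H3K27ac none passed, where 4.94% of 79349 regions did. An unadjusted p under 0.05 was found for 3 member regions and for 14749 of all regions. Replicates of the same number deviated together throughout the series, so a fit with the replicate number as a block was also made, and its value is given wherever it changes a call.

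**Figure D2:**
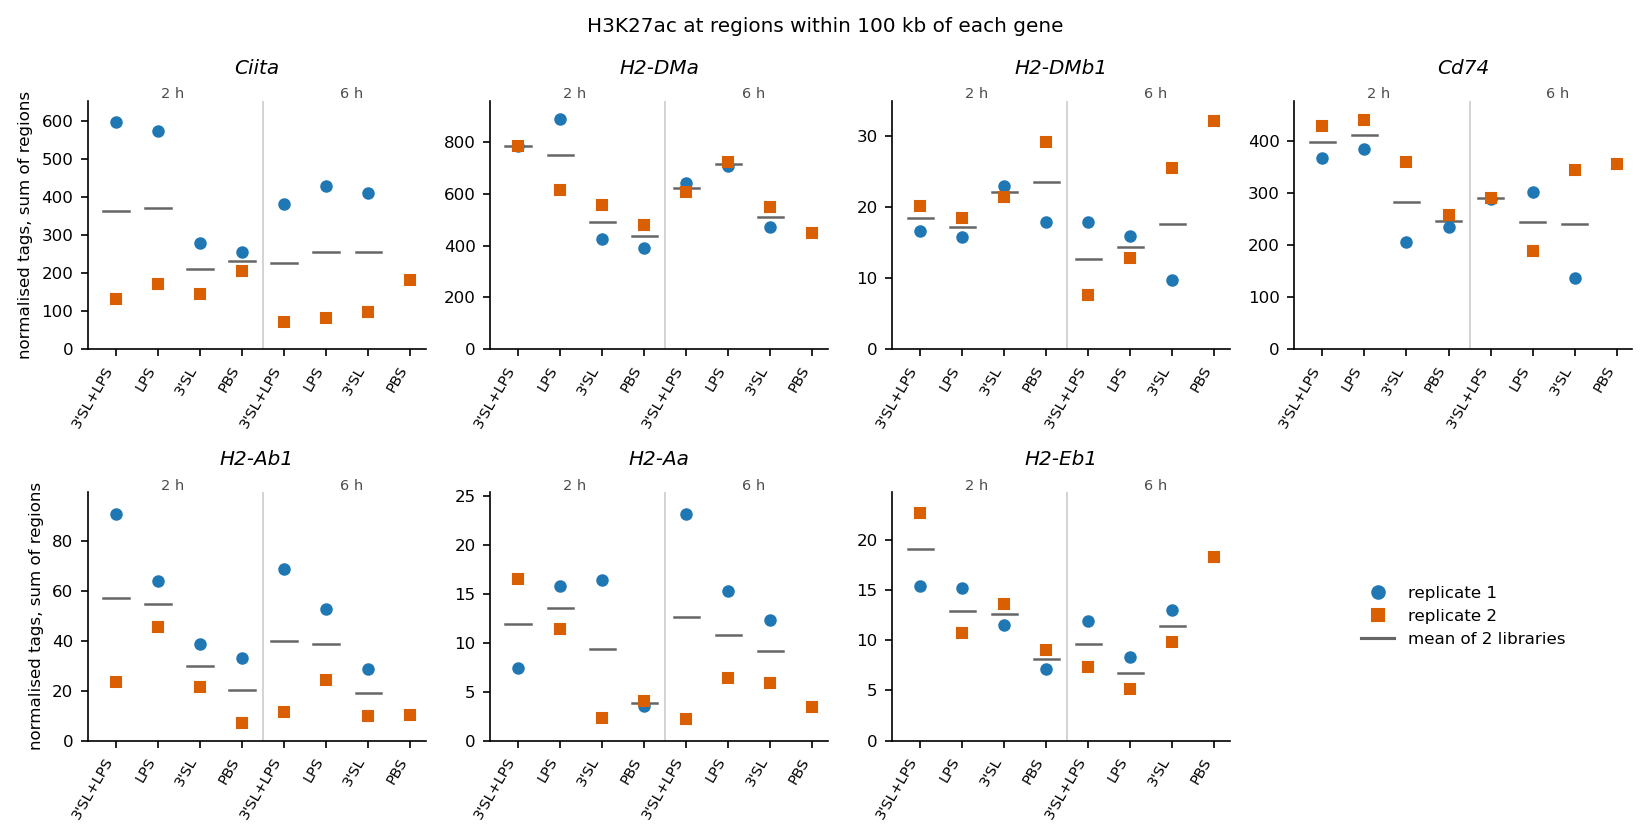
H3K27ac gene sums of the 7 members (vertical axes, normalised tags) in each library, with 3'SL plus LPS, LPS, 3'SL and PBS at 2 h and then at 6 h along the horizontal axis, replicate 1 as circles, replicate 2 as squares and a bar at the mean of 2 libraries. At 2 h both LPS points lie above both PBS points for H2-DMa, Cd74, H2-Ab1, H2-Aa and H2-Eb1, and the Ciita points split by replicate.

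Ciita, the regulator of the whole set, varied more between the replicates than between treatments. Its H3K27ac sum was 572 and 171 normalised tags in LPS replicates 1 and 2 at 2 h, against 256 and 205 in PBS. The groups overlap, since replicate 1 was higher and replicate 2 lower after LPS. Over all treatments the sum ran from 256 to 595 in the 8 replicate 1 libraries and from 72.4 to 205 in the 8 of replicate 2, with no overlap. The log2 difference was 0.45 ± 1.08 (SE, adjusted p = 0.884), and it turned to −0.45 without LPS replicate 1.

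Within Ciita the clearest separation of the libraries was at 1 region. The intron region at 8621, printed above, held 93.0 and 37.0 normalised tags of H3K27ac after LPS at 2 h, against 18.0 and 2.01 in PBS. Both LPS libraries exceed both PBS libraries, and within each replicate the LPS library is the higher. The log2 difference was 2.98 ± 1.67 without the block (adjusted p = 0.386) and 2.98 ± 0.56 with it (adjusted p = 0.0012). With the block, limma called 11.4% of all regions higher in this comparison, and 4 of the 22 member regions.

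At none of the other 9 Ciita regions did both LPS libraries exceed both PBS libraries in H3K27ac. At −3969, the Ciita region with the most H3K27ac, LPS libraries held 102 and 22.8 and PBS libraries 61.0 and 121 normalised tags, with overlap and opposite directions in the replicates. At −438, the region nearest an annotated start, LPS libraries held 48.8 and 12.8 against 23.3 and 10.1 in PBS, each replicate higher after LPS but the groups overlapping. The 10 regions ran in log2 difference from −1.56 at 2545 to 2.98 at 8621, and none passed without the block.

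**Figure D3:**
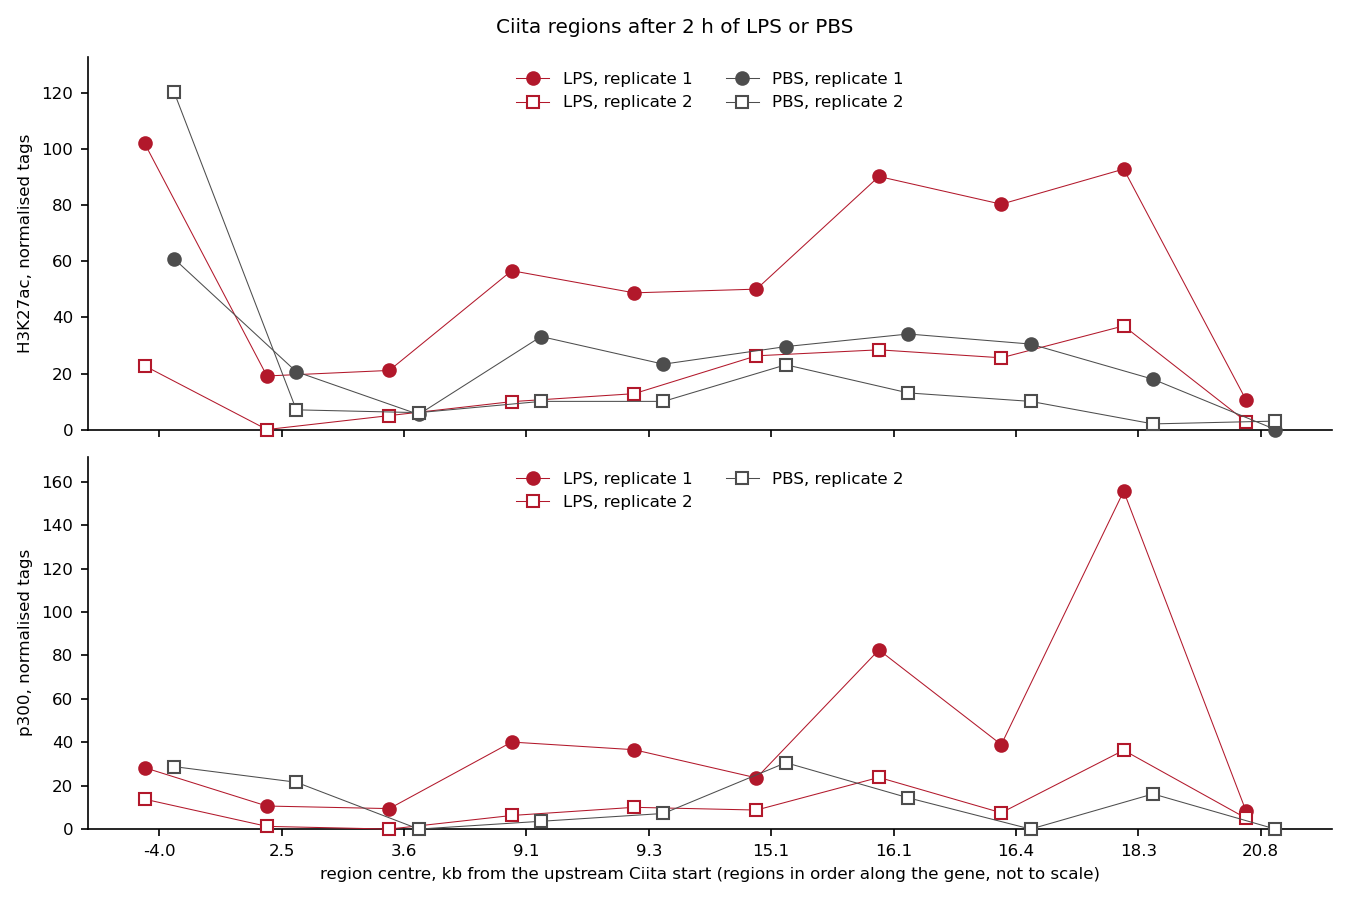
Normalised tags of H3K27ac and p300 (vertical axes) at the 10 Ciita regions in their order along the gene (horizontal axis, kb from the most upstream start), for LPS and PBS libraries at 2 h. The region at 18.3 kb, which is the one 8621 bases from an alternative start, has all LPS points above all PBS points in both marks.

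The class II chain genes came next. H2-Ab1 encodes the beta chain of the I-A molecule. Its H3K27ac sum was 64.0 and 45.5 normalised tags after LPS at 2 h against 33.2 and 7.04 in PBS, and the groups did not overlap. The log2 difference of 1.73 had an SE of 0.97 without the block (adjusted p = 0.385) and of 0.45 with it (adjusted p = 0.0138), a fit in which 12.7% of genes were called higher and, of the members, H2-Ab1 and H2-DMa.

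Most of this stood at the upstream H2-Ab1 region, which held 37.6 and 29.2 normalised tags after LPS against 18.0 and 0.0 in PBS. Both LPS libraries were the higher. Its log2 difference was 2.97 ± 1.17 without the block (adjusted p = 0.191) and 2.97 ± 0.72 with it (adjusted p = 0.00726). At the H2-Ab1 start the LPS libraries held 26.4 and 16.4 against 15.2 and 7.04 normalised tags in PBS, a log2 difference of 0.93 ± 1.09 (adjusted p = 0.733). The averages of both windows over input are the ratios of 1.78 and 1.75 given above.

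H2-Aa, the alpha chain of I-A, had 15.8 and 11.4 normalised tags of H3K27ac after LPS against 3.59 and 4.02 in PBS. The groups do not overlap, yet its ChIP average lies below input and the log2 difference of 1.59 ± 0.99 was not called (adjusted p = 0.453). H2-Eb1 encodes the beta chain of I-E, whose alpha partner C57BL/6 mice do not make. It had 15.2 and 10.7 after LPS against 7.18 and 9.05 normalised tags in PBS, without overlap and with a log2 difference of 0.60 ± 0.46 (adjusted p = 0.564).

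Cd74 encodes the invariant chain, which blocks the peptide groove until the endosome is reached. Its H3K27ac sum was 385 and 440.3 normalised tags after LPS at 2 h against 234 and 258 in PBS. The groups did not overlap, and the log2 difference was 0.74 ± 0.41 (adjusted p = 0.385). The strongest windows, at 1984 and 2121 in intron 1, overlap each other, so the tags they share enter the sum from both. The window at 2121 held 165 and 174 after LPS against 96.0 and 91.5 normalised tags in PBS (log2 difference 0.85 ± 0.44, adjusted p = 0.342).

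H2-DMa encodes the alpha chain of the H2-DM molecule, which exchanges the invariant chain fragment for peptide. Its sum was 891 and 615 normalised tags after LPS at 2 h against 392 and 482 in PBS, with no overlap. The log2 difference was 0.77 ± 0.24 (adjusted p = 0.102) without the block and 0.77 ± 0.21 (adjusted p = 0.0172) with it. Summed over the merged H3K27ac peaks assigned to H2-DMa, of which none lies within 1 kb of its start, it was −0.0127 (adjusted p = 0.993). The intron region held 640.2 and 460.2 after LPS against 301 and 352 normalised tags in PBS, a log2 difference of 0.74, with an adjusted p of 0.142 without the block and 0.0188 with it. The region at −651 held 251.2 and 154 after LPS against 91.5 and 131 normalised tags in PBS, a log2 difference of 0.84, with 0.188 without the block and 0.0331 with it. The beta chain gene H2-DMb1, whose only region lies 12043 bases away between genes, had 15.8 and 18.5 normalised tags after LPS against 18.0 and 29.2 in PBS. The groups overlap, and the log2 difference was −0.40 ± 0.52 (adjusted p = 0.766).

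For p300 the comparison of LPS with PBS at 2 h rests on 1 PBS library, of replicate 2, while LPS has both replicates. Of the 7 gene sums 5 were higher after LPS, with a median log2 difference of 0.85 against 0.11 over all genes. That median is the value of Ciita, which, like that of Cd74, turned negative without LPS replicate 1. Within replicate 2, Ciita, Cd74 and H2-DMb1 were lower after LPS and the other members higher. None of the 7 passed with limma (1.58% of 15971 genes did), edgeR or DESeq2. An unadjusted p under 0.05 was found for 2 members and for 2126 of all genes. Of 22 member regions none passed, where 2.2% of 62225 regions did. An unadjusted p under 0.05 was found for 6 member regions and for 9088 of all regions. H2-Ab1 had 63.7 and 22.6 normalised tags of p300 after LPS against 3.60 in the PBS library, all LPS libraries being the higher. The log2 difference was 3.09 ± 0.84 (adjusted p = 0.090) without the block and 2.59 ± 0.60 (adjusted p = 0.0061) with it, where 6.72% of genes were called higher. In tags this is 72 against 2, a ratio after scaling of 12.2 with a 95% counting interval of 3.24 to 102. The ChIP averages of these windows over all libraries do not exceed input. With edgeR and the block neither the H2-Ab1 sum nor any member region was called.

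At the upstream H2-Ab1 region alone, p300 after LPS at 2 h was 50.7 and 20.1 normalised tags against 3.60 in PBS, a log2 difference of 2.84 (adjusted p = 0.0982) without the block and 2.52 (adjusted p = 0.0276) with it, where 5.62% of regions were called higher, a call that edgeR with the block did not make. H2-Aa had 21 tags in the LPS libraries and 0 in PBS, at least 2.36-fold higher when PBS is set at the floor of 3 tags over the group; its adjusted p was 0.146. H2-DMb1 ran the other way with 2 tags after LPS against 7 in PBS, a ratio of 0.0965 (95% counting interval 0.00978 to 0.507, adjusted p = 0.399). Such intervals cover counting error only.

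Ciita had 434 and 113 normalised tags of p300 after LPS against 122 in the PBS library, which lies between them. The log2 difference of 0.85 ± 0.72 (adjusted p = 0.721) turned to −0.12 without LPS replicate 1 and to −0.03 with the authors' scaling, which moves the median of all p300 gene sums in this comparison to −0.73, against 0.11 here. Relative to those medians Ciita stays above in both scalings. At the Ciita intron region p300 was 156 and 36.3 normalised tags after LPS against 16.2 in PBS, both higher, and the log2 difference of 2.15 ± 1.43 was not called (adjusted p = 0.545), and was 1.00 ± 0.76 with the block (adjusted p = 0.50). Cd74 had 149.8 and 95.3 against 97.2 normalised tags, with PBS between the LPS libraries, a log2 difference of 0.30 ± 0.41 (adjusted p = 0.862) that turned to −0.59 with the authors' scaling, again above that median, and to −0.03 without LPS replicate 1. H2-DMa had 168 and 77.7 against 57.6 normalised tags, a log2 difference of 0.98 ± 0.88 (adjusted p = 0.739), and H2-Eb1 2.36 and 13.8 against 12.6, a log2 difference of −0.95 ± 1.68 (adjusted p = 0.892) that turned to 0.12 without LPS replicate 1.

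**Figure D4:**
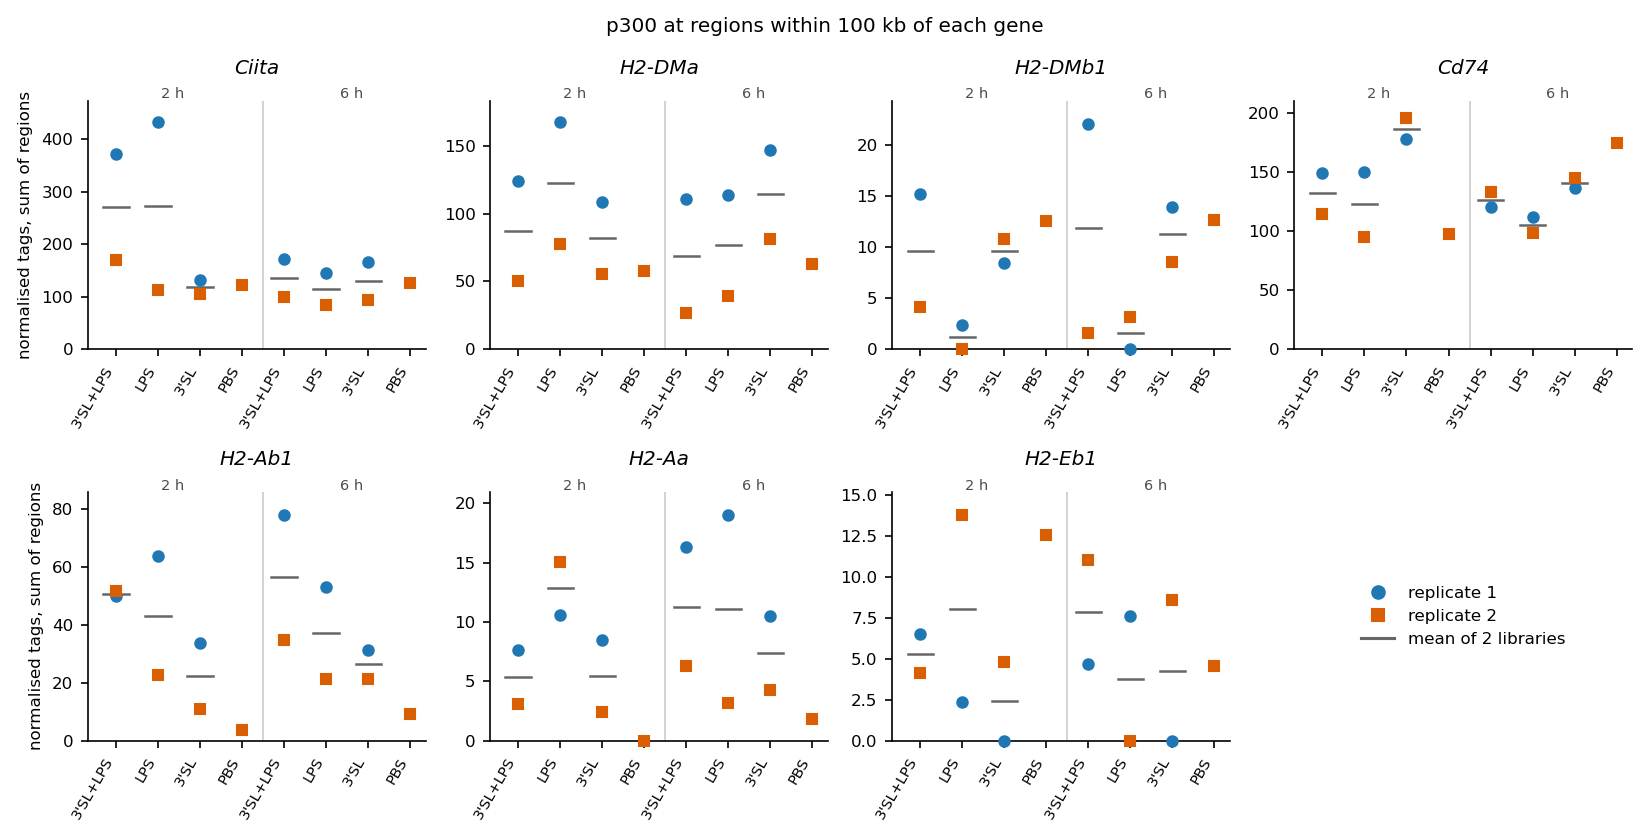
p300 gene sums of the 7 members (vertical axes, normalised tags) in each library, in the order 3'SL plus LPS, LPS, 3'SL and PBS at 2 h and then at 6 h, replicate 1 as circles and replicate 2 as squares, with PBS present as replicate 2 alone. The H2-Ab1 points of the PBS libraries, 3.60 and 9.08, lie below all others of that gene, and replicate 1 of Ciita after LPS at 2 h stands highest.

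**Figure D5:**
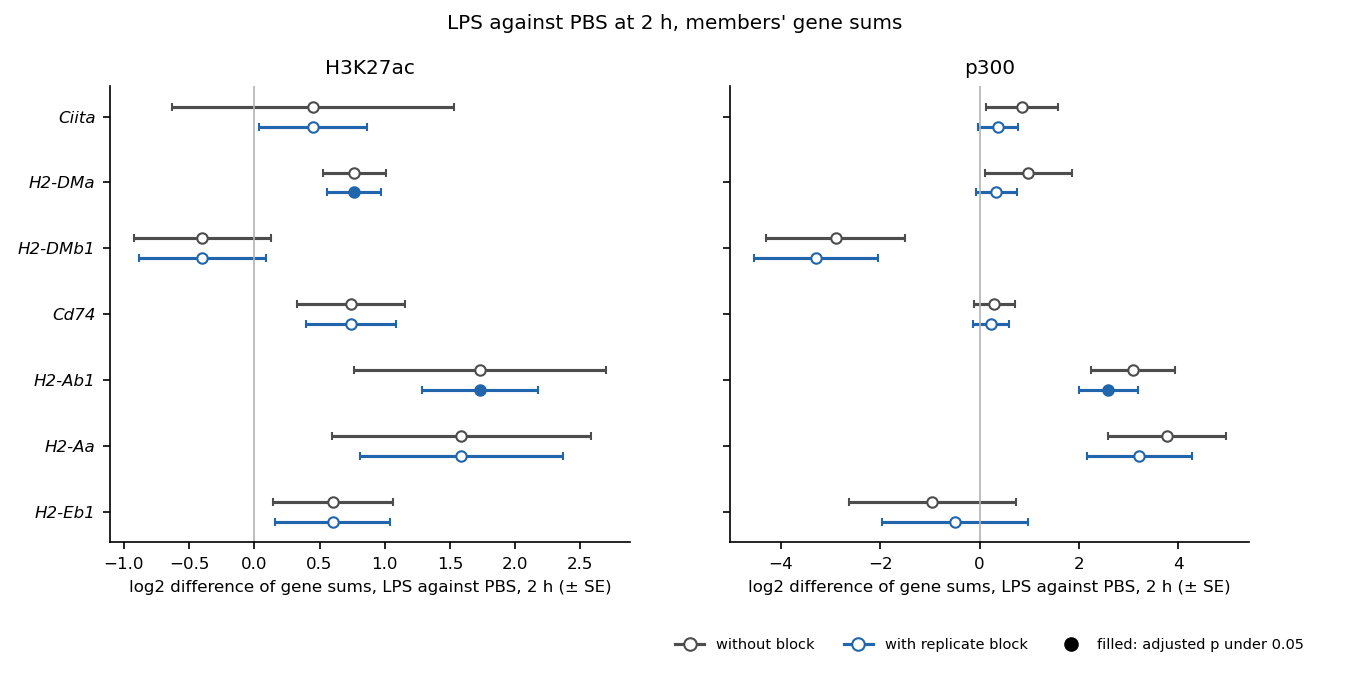
Log2 difference of LPS over PBS at 2 h with its SE (horizontal axis) for each member and mark, without and with the replicate block, where filled points have an adjusted p under 0.05. Filled points appear only with the block, at H2-Ab1 and H2-DMa for H3K27ac and at H2-Ab1 for p300.

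When both arms carried 3'SL, no member was called for LPS at 2 h without the block. Over 3'SL alone, 3'SL plus LPS gave a median log2 difference of 0.54 in the H3K27ac sums of the members, against 0.07 over all genes, of which 55.6% were positive. None of the 7 was called with limma (2.31% of genes), edgeR or DESeq2. An unadjusted p under 0.05 was found for 1 member, H2-DMa, and for 2386 of all 16993 genes. Of the member regions none was called (2.32% of all regions). An unadjusted p under 0.05 was found for 1 member region and for 11313 of all 79349 regions. H2-DMa had 785 and 787 normalised tags with 3'SL plus LPS against 428 and 557 with 3'SL, without overlap. The log2 difference of 0.69 had an adjusted p of 0.198 without the block and 0.0399 with it, where 8.46% of genes were called higher. Over the merged H3K27ac peaks it was −0.48 (adjusted p = 0.797).

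The Ciita intron region held 95.7 and 16.1 normalised tags of H3K27ac with 3'SL plus LPS against 14.0 and 0.910 with 3'SL. Both libraries with LPS were the higher. The log2 difference of 2.93 had an adjusted p of 0.495 without the block and 0.00208 with it, where 8.39% of regions were called higher. The block also added the Ciita region at 6664 (98.2 and 17.3 against 28.7 and 4.10 normalised tags, log2 difference 1.79, adjusted p 0.696 without and 0.017 with the block) and the H2-DMa intron region (566 and 598 against 311 and 424, log2 difference 0.68, adjusted p 0.24 and 0.038).

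In p300 the same comparison called none of the 7 genes (1.42% of genes; 0 at an unadjusted p under 0.05; 0 with edgeR and DESeq2) and none of the regions (1.22% of regions; 4 at an unadjusted p under 0.05). Over all features, 1800 of 15971 genes and 7054 of 62225 regions had an unadjusted p under 0.05. Ciita had 373 and 169 normalised tags of p300 with 3'SL plus LPS against 132 and 105 with 3'SL, with no overlap. Its log2 difference of 1.09 had an SE of 0.59 and an adjusted p of 0.556 without the block, and an SE of 0.31 and an adjusted p of 0.0284 with it, where 5.42% of genes were called higher. The Ciita region with the largest difference in mean tags was the intron region, with 95.6 and 41.3 against 27.8 and 3.59 normalised tags. There the log2 difference of 2.48 had an adjusted p of 0.435 without the block and 0.00786 with it, where 4.47% of regions were called higher.

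The comparisons that isolate 3'SL gave no call for these genes. Between 3'SL plus LPS and LPS alone, limma called 0.0% of genes and 0.0% of regions in both marks at 2 h and at 6 h, and none of the 7 genes or their regions had an unadjusted p under 0.05. With edgeR, DESeq2 or the block none of them was called either. An unadjusted p under 0.05 was found for 33 genes at 2 h and 96 at 6 h in H3K27ac, of 16993. In p300 it was 113 and 358 of 15971 genes. For regions it was 276 and 532 of 79349 in H3K27ac, and 673 and 1835 of 62225 in p300. The intervals say how much could have been missed. For the H3K27ac sum of H2-DMa at 2 h the log2 difference was 0.09 with a 95% interval of −0.45 to 0.62, and at 6 h it was −0.20 (−0.73 to 0.34). For Cd74 at 2 h it was −0.05 (−0.97 to 0.86), and for Ciita −0.16 (−2.54 to 2.22), an interval wide enough to leave Ciita unresolved. The libraries themselves overlapped for Ciita, with 595 and 131 normalised tags of H3K27ac under 3'SL plus LPS and 572 and 171 under LPS.

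Between 3'SL and PBS, 0.0% of genes and regions were called for H3K27ac at either time, and none of the members had an unadjusted p under 0.05. Of all 16993 genes, 73 at 2 h and 193 at 6 h had one. In p300 at 2 h, 0.0376% of genes and 0.0% of regions were called, none of them a member. Cd74 had 177 and 195 normalised tags of p300 with 3'SL against 97.2 in the PBS library, a log2 difference of 0.93 ± 0.41 (adjusted p = 1). H2-Ab1 had 33.8 and 10.8 against 3.60, a log2 difference of 2.14 ± 0.84 (adjusted p = 1). These are the 2 members with an unadjusted p under 0.05, where 691 of all 15971 genes had one. No member was called with edgeR, DESeq2 or the block at either time in either mark. At 6 h 0.0% of genes and 0.0% of regions were called in p300. There 222 of 15971 genes and 1306 of 62225 regions had an unadjusted p under 0.05. Of the members, 0 genes and 1 region had one. That region was the one upstream of H2-Ab1, with 19.8 and 21.5 normalised tags with 3'SL against 0.908 in PBS. This comparison and LPS against PBS share the PBS library, in which that region held 1 tag.

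At 6 h LPS against PBS called none of the 7 H3K27ac sums (0.565% of genes; 2 members at an unadjusted p under 0.05; 0 with edgeR and DESeq2), and their median log2 difference was 0.03 against −0.03 over all genes. None of the 22 regions was called (0.63% of regions), with 1 at an unadjusted p under 0.05. Over all features, 1978 of 16993 genes and 10165 of 79349 regions had an unadjusted p under 0.05. H2-DMa had 710.3 and 725 normalised tags after LPS against 452 in the PBS library, both higher, with a log2 difference of 0.67 ± 0.30 (adjusted p = 0.416). H2-Eb1 had 8.35 and 5.11 against 18.2, both lower, with a log2 difference of −1.35 ± 0.56 (adjusted p = 0.380). Cd74 had 302 and 188 against 356 normalised tags, both lower, with a log2 difference of −0.58 (adjusted p = 0.736).

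In p300 at 6 h none of the 7 sums was called after LPS (0.131% of genes; 0 at an unadjusted p under 0.05; 0 with edgeR and DESeq2). Of all 15971 genes, 1313 had an unadjusted p under 0.05. At the level of regions, 0.41% of all regions were called, 0.387% as higher, and 1 of the 22 member regions. This was the region upstream of H2-Ab1, with 43.7 and 21.4 normalised tags after LPS against 0.908 in PBS, a log2 difference of 4.05 ± 0.84 (adjusted p = 0.0463). The call compares 43 tags with 1, a ratio of 32.4 with a 95% counting interval of 5.5 to 1310, in a window whose ChIP average does not exceed input. It held with the block (log2 difference 3.72, adjusted p = 0.00212, with 2.02% of regions called higher) and with edgeR and the block (adjusted p = 0.0113). It was lost with edgeR (adjusted p = 0.182), DESeq2 (0.0652), the authors' scaling (0.913), a pseudocount of 5 (0.165), and without LPS replicate 1 (0.242) or replicate 2 (0.124).

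With 3'SL in both arms at 6 h, none of the members was called in H3K27ac (0.63% of genes and 0.585% of regions; 0 genes and 0 regions at an unadjusted p under 0.05) or in p300 (0.0751% of genes and 0.246% of regions; 0 genes and 1 region at an unadjusted p under 0.05). The region was the Ciita intron region, with 47.8 and 6.31 normalised tags of p300 under 3'SL plus LPS against 8.15 and 0.0 under 3'SL. Each replicate was higher with LPS, though the groups overlap. With the block its log2 difference was 2.64 ± 0.60 (adjusted p = 0.00883), where 2.11% of regions were called higher. Without the block, 1721 of 16993 genes and 8617 of 79349 regions had an unadjusted p under 0.05 in H3K27ac. In p300 it was 1264 of 15971 genes and 5400 of 62225 regions.

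Between the times, LPS at 6 h was below LPS at 2 h on average in all 7 H3K27ac sums, with a median log2 difference of −0.58 against −0.11 over all genes, and in 6 of 7 p300 sums, with a median of −0.57 against −0.04. No gene and no region was called in either mark (0.0% of all genes and 0.0% of all regions), nor any member with edgeR or DESeq2. An unadjusted p under 0.05 was found for 1189 of 16993 genes and 4408 of 79349 regions in H3K27ac. In p300 it was 677 of 15971 genes and 3154 of 62225 regions. Of the members, 0 genes and 1 region in H3K27ac and 0 genes and 2 regions in p300 had an unadjusted p under 0.05. The 2 were the overlapping Ciita windows at −565 and −438, near an annotated start. The window at −438 held 1.90 and 8.54 normalised tags of p300 at 6 h against 36.6 and 10.0 at 2 h, a log2 difference of −1.95. The Ciita intron region held 32.3 and 7.47 normalised tags at 6 h, against 156 and 36.3 at 2 h, and was called lower with edgeR and the block alone (log2 difference −2.27, adjusted p = 0.0458).

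The response to LPS at 6 h was also tested against that at 2 h. Cd74 in H3K27ac had the LPS mean above PBS at 2 h and below it at 6 h, and the difference of the responses was −1.32 ± 0.66 on the log2 scale (adjusted p = 1). For H2-Eb1 it was −1.95 ± 0.73 (adjusted p = 1). The response to LPS with 3'SL minus that without was tested in the same way at both times, and all adjusted p-values of the 7 genes were 1. The lowest unadjusted p among these was that of H2-Aa in p300 at 2 h, −3.70 ± 1.53, on the counts of 21 and 0 tags given above.

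Outside the class II genes, calls were made in the class I pathway. Of 10 genes of class I presentation, which shows peptides to cytotoxic T cells, 6 rose in H3K27ac after LPS at 2 h: B2m (log2 difference 1.59), H2-K1 (1.32), Tap1 (1.80), Tapbp (1.96), Psmb8 (2.25) and Psmb10 (1.91), with limma adjusted p from 0.0136 to 0.0472, where 3.35% of all genes were called higher. B2m and H2-K1 encode chains of the class I molecule, Tap1 and Tapbp act in peptide transport and loading, and Psmb8 and Psmb10 are immunoproteasome subunits. The list's median was 1.56 against 0.09 for all genes. With 3'SL in both arms 2 of the 10 rose, Tapbp (1.71) and Psmb10 (1.68), where 1.53% of all genes were called higher. With the block 7 of the 10 were called higher in each of these comparisons, Psmb9 being added to the 6, where 12.7% of all genes were called higher without 3'SL and 8.46% with it.

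Of 20 regulators of Ciita and of the X and Y box module, Socs1 (1.82, adjusted p = 0.0136), an inhibitor of interferon signalling, and Jak2 (1.77, adjusted p = 0.00366), a kinase of the interferon-γ receptor, rose in H3K27ac after LPS at 2 h. They rose as well with 3'SL in both arms, by 1.57 and 1.67. Of all genes, 3.35% were called higher without 3'SL and 1.53% with it. The list's median was 0.28, and the subunits of the DNA-bound complex were not called: Rfx5 had a log2 difference of 0.76, Rfxank of −0.45, Rfxap of −0.23 and Nfya of −0.27. Of 10 further class II genes of peptide loading and turnover, 8 were tested and none was called, where 5.51% of all genes were. Their median was −0.37. H2-Ob, a subunit of the inhibitor of H2-DM, had 0.75, the protease gene Ctss −0.29, Lgmn −0.56 and Ifi30 −0.62. In p300 no gene of the 3 lists was called in any comparison without the block. With the block in H3K27ac after LPS at 2 h, 4 regulators were called higher and 1 lower, and 1 of the 8 peptide loading genes was called higher (March1, a ubiquitin ligase that removes class II from the surface) and 2 lower (Ctsl and Lgmn, endosomal proteases), where 12.7% of all genes were called higher and 10.2% lower. The regulators' count is thus not far from the share of all genes. For p300 in the same comparison the genes that the block added included Spi1, Jak2 and Tapbp as higher, where 6.72% of all genes were.

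The genes whose H3K27ac pattern was most like that of a member were ranked by Pearson's r of log2 group means over the 8 groups of treatment and time, among 8494 genes with H3K27ac at or above the median. For Ciita they were Chic2 (0.99), Tvp23a (0.981), Cnot4 (0.979), Lsm8 (0.977) and Clk3 (0.972). For H2-Ab1 they were Rita1 (0.996), P4hb (0.992), Dcp1a (0.992), Cldnd1 (0.988) and 4732491K20Rik (0.988). All values come from the same libraries, so depth and enrichment are shared. The PBS mean at 6 h is of replicate 2 alone, and the Ciita sums split by replicate. How far this shapes the ranking was not tested. Each r is among the highest of 8494 over 8 groups and is a description without a p-value.

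The deposited peak lists of p300, LXR and SREBP are, per the labels, of macrophages given 1 µM of GW3965, an LXR agonist, for 18 h, and not of the LPS and 3'SL libraries. The p300 peaks overlapped 13 of the 23 member regions by at least 1 base, or 56.5%, against 32.8% of the 86543 regions near genes. These held all 6 Cd74 regions and 5 of the Ciita regions, including the one at 8621, and none of H2-Ab1, H2-Aa or H2-Eb1. Peaks of LXR and of SREBP, sterol-responsive transcription factors, overlapped 4 member regions each (17.4%), against 22.5% and 21.6% of the regions near genes. LXR peaks fell on Cd74 at −14370 and 3615 and on Ciita at 2545 and 6417, and SREBP peaks on Cd74 at −11729 and −8565, on Ciita at −3969 and on H2-DMa at −651. No test was made of these shares.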

How the data were processed

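ChIP-seq of H3K27ac (16 libraries) and p300 (14 libraries) was analysed in open chromatin regions that, per the labels, come from re-analysed ATAC-seq of untreated macrophages and of macrophages given KLA for 1 h. Groups follow the library titles. For H3K27ac at 2 h, the treatment labels of 3 replicate 1 libraries name 1 h instead, and that of 3'SL plus LPS replicate 2 names the vehicle. The PBS libraries of p300 replicate 1 and of H3K27ac replicate 1 at 6 h were not analysed here, since no deposited column was matched to them.

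Per the submitters' processing notes, Bowtie2, HOMER and DESeq2 were used with the build mm10, whose versions the sources used here do not give. Per the file headers, the deposited signal is HOMER annotatePeaks coverage of each window, which the authors scaled to 10000000 tags in each library. Values times library total gave whole tags for 100.0% of values within 0.05, so tags were recovered. The deposited region score of the ATAC list was not used, and 13 deposited columns matched no sample and were not used. Gene names, distances and annotations are those the authors deposited.

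Tags were scaled with TMM factors (edgeR 4.0.16, R 4.3.3) and tested as log2(value + 1) with limma 3.58.1, in 1 model of group means per mark, two-sided, with Benjamini-Hochberg adjustment over all genes or regions that passed a filter on low tags (16993 and 79349 for H3K27ac, 15971 and 62225 for p300) and a threshold of 0.05. All 7 genes and 22 of 23 regions per mark passed. Log2 differences are on that scale and understate changes at low tags. edgeR and DESeq2 1.42.0 on the recovered counts, a replicate block, the authors' scaling, a pseudocount of 5, no filter, regions within 10 kb, windows that do not overlap, other region sets and leaving out each library were alternatives. Genes and regions were named by rule: all members, and per member the region nearest a start, the one with most H3K27ac and any past the threshold; the region at 6664 and those named for an unadjusted p were chosen after their values were seen. The members, lists and tests were chosen with earlier results of these data known. The scripts were tested on simulated data.

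Same-numbered libraries deviated together from their group means: the lowest correlation over the 21 pairs of groups was 0.448 for H3K27ac gene sums and over the 15 pairs 0.274 for p300 gene sums. No label says that replicates are separate animals or cultures, so p-values may measure technical spread only. Replicates were no duplicates, with a chi-square per degree of freedom of 8.34 to 28.3. Counting intervals are exact at 95% and, like the floor of 3 tags, cover counting error only. Python 3.11.15 was used for the rest. Values of some listed genes are not reported here.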

Additional observations from a re-analysis of the deposited data

How the results depend on the processing

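Of 249 recomputed counts of members called as gene sums 242 were within 1.5 times the count reported, and of 186 counts of member regions 169 were. The replicate block gave 2 gene sums in H3K27ac for LPS against PBS at 2 h (2 also with edgeR and the block, which was added after seeing the data), 1 for 3'SL plus LPS against 3'SL at 2 h (edgeR 1), and in p300 1 for each of these comparisons (with edgeR and the block 1 in the second alone). For regions it gave 4 in H3K27ac for LPS at 2 h and 3 with 3'SL in both arms (edgeR with the block 5 and 3), and in p300 1 for LPS at 2 h (edgeR with the block 0) and 1 with 3'SL in both arms at 2 h and at 6 h (edgeR with the block 1 and 1). edgeR with the block also gave 1 for LPS at 6 h against 2 h in p300, and the fifth H3K27ac region was Ciita at 6664. The block changed no other call of a member. The p300 count for LPS at 6 h, 1, was 0 with edgeR, DESeq2, the authors' scaling and a pseudocount of 5, and 0 to 0 with either library left out. The H3K27ac region count for LPS at 2 h was 0 to 1 with 1 library left out, the 1 being the region upstream of H2-Ab1 without PBS replicate 1 (log2 difference 5.1, adjusted p = 0.0294).

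Among the named differences for LPS against PBS at 2 h, these changed sign, and the cause was not tested. In H3K27ac, Ciita ran from −0.45 to 1.32 with 1 library left out, H2-DMa was −0.0127 over merged H3K27ac peaks, where it was −0.48 with 3'SL in both arms, and H2-DMb1 was 0.65 over merged transcription factor regions. In p300, with 1 library left out, Cd74 ran from −0.0276 to 0.62, Ciita from −0.12 to 1.82 and H2-Eb1 from −2.0 to 0.12, and the authors' scaling gave −0.59 for Cd74 and −0.0328 for Ciita. That scaling moved the median of all p300 gene sums by −0.84 for LPS against PBS at 2 h and by −0.98 at 6 h, and the H3K27ac medians by −0.07 and −0.13.

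The counts over all genes moved more. For H3K27ac gene sums after LPS at 2 h limma called 936, edgeR 896, DESeq2 1821, limma with the block 3884 and with the authors' scaling 483. For p300 they were 253, 48, 355, 1380 and 0. At 6 h they were 96, 58, 562, 1280 and 29 for H3K27ac. The lone PBS libraries, the few tags of the H2-Aa, H2-Eb1 and H2-DMb1 windows in p300 and the difference in enrichment between replicates limit what can be detected, and a difference that was not called is not shown to be absent.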

Other observations

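The deposited p65 peak list was not used for the members, because 329 of its 41220 peaks lie beyond the ends of the mm10 chromosomes, against 0 of the LXR, SREBP and p300 peaks and 0 of the 97113 open regions. The merged transcription factor regions, 80096 in number and used above as another region set, also hold 329 such positions, and 41202 of the p65 peaks lie within 100 bases of one of them. These values are given as measured. The series' design text names mm10 for the p65 reads, and the cause of the difference was not tested.

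Among merged H3K27ac peaks, the nearest to the start of H2-Ab1 lay at −143 bases. For H2-DMa the nearest such peak lay at 2253 bases, against −651 among the open regions.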
